A study of Homo sapiens with 16 samples.

Results

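The genes described here are the AP-1 and immediate early genes: FOS, FOSB, FOSL1, FOSL2, JUN, JUNB, JUND, EGR1, IER2 and IER3. They were chosen by symbol, with earlier results of these data known, as the FOS and JUN families and 3 further early-response genes. They make up 10 of the 58051 genes in the deposited count table. The study asked which transcripts depend on XBP1s, the spliced form of the stress factor XBP1, in LNCaP cells, an androgen-sensitive human prostate cancer line at passage 20. Paired-end RNA sequencing fragments were counted per gene in 16 samples, in 4 groups of 4. In the knockdown experiment, a control siRNA named Allstar (group siCtrl) or an siRNA to XBP1 (group siXBP1) was transfected, and thapsigargin followed 2 days later. In the inhibitor experiment, cells received DMSO (Vehicle) or 10 µM MKC8866, an inhibitor of the RNase of IRE1, for 24 h before thapsigargin. All 16 samples received 30 nM thapsigargin, a blocker of the calcium pump of the endoplasmic reticulum, for 3 h. No unstressed sample exists, so induction of any gene by thapsigargin could not be measured. Total counts per sample ran from 31920910 to 34509488 in siCtrl, from 28713607 to 32600081 in siXBP1, from 28923919 to 34188950 in Vehicle and from 29203993 to 34507788 in MKC8866.

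AP-1 is a family of paired transcription factors that bind DNA through a basic region and hold each other through a leucine zipper. FOS proteins cannot pair with themselves and need a JUN partner, whereas JUN proteins can also pair with each other. Many of these genes are immediate early genes: growth factors, calcium and stress switch them on within minutes without new protein synthesis, through MAP kinases acting on SRF, its partners and CREB-type factors at their promoters, and their messages decay fast. IRE1, besides splicing XBP1, is known to recruit TRAF2 and activate the JNK kinases, which phosphorylate JUN.

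XBP1 itself was the first check of the labels. Its level in CPM, the usual count relative to library size, scaled by TMM, was 382, 426, 365 and 362 in siCtrl replicates 1 to 4 and 51.5, 54.2, 54.4 and 53.4 in siXBP1. It was 486, 536, 479 and 503 in Vehicle and 581, 614, 574 and 539.7 in MKC8866. All 4 knockdown libraries lay far below their controls, and all 4 MKC8866 libraries lay above theirs. After knockdown XBP1 fell by 2.85 on the log2 scale (SE 0.0505, edgeR's quasi-likelihood test with Benjamini-Hochberg adjustment, adjusted p = 2.92e-20), and with the inhibitor, which acts on splicing, total XBP1 RNA rose by 0.20 (SE 0.0437, adjusted p = 0.00493).
DNAJB9, an endoplasmic reticulum co-chaperone and a textbook XBP1s target, was at 226, 232, 209 and 242 CPM in siCtrl against 43.0, 45.6, 48.2 and 46.8 in siXBP1. In Vehicle it was at 174, 185, 170.4 and 189.8 CPM, against 43.2, 51.2, 47.3 and 55.5 in MKC8866. No treated library reached any control library in either experiment. Its exons share 6.45% of their bases with THAP5 on the opposite strand and 3.49% with PNPLA8. DNAJB9 fell by 2.31 (SE 0.0496, adjusted p = 4.11e-19) after knockdown and fell by 1.87 (SE 0.0578, adjusted p = 9.75e-17) with the inhibitor in edgeR's quasi-likelihood test with Benjamini-Hochberg adjustment.

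The labelled cell line was checked against its markers. All 7 prostate luminal markers, among them KLK3 and FOLH1, had a mean of at least 1 CPM, with means from 148 to 1150 CPM. None of the basal markers KRT5, KRT14 and TP63 did: 0 of 3 reached that mean, and the most abundant, KRT14, was at 0.751 CPM. Of the fibroblast markers 2 of 5 did, COL1A1 at 30.6 CPM and COL3A1 at 3.02 CPM, while COL1A2 was at 0 in 14 libraries and DCN at 0 in 10. The leukocyte marker PTPRC was at 0 in 14 libraries and the endothelial marker PECAM1 in 11, with VWF at 8.52 CPM. The summed luminal level ran from 3182 to 3373 CPM in siCtrl, 2706 to 2757 in siXBP1, 3156 to 3265 in Vehicle and 3545 to 3682 in MKC8866. Its members differed, some being named here after their values were seen. In siCtrl and siXBP1, mean KLK3 was 657 and 363 CPM, KLK2 173 and 101 CPM and TMPRSS2 231 and 125 CPM, all 3 called, and FOLH1 1079 and 1074 CPM and HOXB13 400 and 403 CPM, not called. In Vehicle and MKC8866, mean KLK3 was 649 and 896 CPM, called. There KLK2 was 157 and 160 CPM, TMPRSS2 212 and 223 CPM, FOLH1 1195 and 1252 CPM and HOXB13 374 and 399 CPM, not called. With replicate number as a block, FOLH1 (0.065, adjusted p = 0.0234) and HOXB13 (0.089, adjusted p = 0.0115) were called higher there in edgeR's quasi-likelihood test with Benjamini-Hochberg adjustment. KLK2 and TMPRSS2 were not. The summed fibroblast level ran from 27.6 to 35.8 CPM in siCtrl, 35.9 to 39.1 in siXBP1, 30.0 to 39.7 in Vehicle and 28.5 to 33.7 in MKC8866. Within it, COL3A1 had a mean of 2.05 CPM in siCtrl and 4.40 in siXBP1, a log2 fold change of 1.097 (SE 0.138, adjusted p = 1.32e-06), and of 2.77 CPM in Vehicle and 2.84 in MKC8866, not called, in edgeR's quasi-likelihood test with Benjamini-Hochberg adjustment. The difference of responses, the log2 change after knockdown minus that with the inhibitor, was 1.07 (SE 0.192, adjusted p = 0.000101) for COL3A1 and 0.40 (SE 0.111, adjusted p = 0.00856) for COL1A1 in edgeR's quasi-likelihood test with Benjamini-Hochberg adjustment. COL1A1 itself changed by 0.16 (SE 0.0668, adjusted p = 0.0762) after knockdown and by −0.24 (SE 0.0758, adjusted p = 0.0799) with the inhibitor, neither called. With replicate number as a block, its inhibitor value was −0.24 (adjusted p = 0.000157), called lower, all in edgeR's quasi-likelihood test with Benjamini-Hochberg adjustment. The part of either sum in the results that follow was not tested. In bulk RNA, fewer cells of a type and less RNA per cell cannot be told apart.

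The members lie on 7 chromosomes of GRCh38 as the count table has them. The FOS family genes are FOS (ENSG00000170345, chr14:75278774-75282230), FOSB (ENSG00000125740, chr19:45467995-45475179), FOSL1 (ENSG00000175592, chr11:65892049-65900573) and FOSL2 (ENSG00000075426, chr2:28392448-28417312). The JUN family genes, each of a single exon, are JUN (ENSG00000177606, chr1:58780788-58784327), JUNB (ENSG00000171223, chr19:12791496-12793315) and JUND (ENSG00000130522, chr19:18279760-18281622). The others are EGR1 (ENSG00000120738, chr5:138465490-138469315), IER2 (ENSG00000160888, chr19:13150415-13154908) and IER3 (ENSG00000137331, chr6:30743199-30744554).

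FOS, FOSL2, JUN and IER2 were higher in both treated groups. The promoters of the first 3 are shown, with those of FOSB, which was higher after knockdown, and of EGR1, which was not called. The windows of IER2 and JUNB held none of the motifs searched, and that of JUND, which held some, is not shown. Of the 10 members, 8 had an entry in the RefSeq promoter table (GRCh38.p14, 250 bases before to 50 after each start); FOSL1 and IER3 had none. Capitals mark the CRE half-site in FOS, FOSB, FOSL2 and EGR1, the ATF/CREB-type site in JUN, and also the CArG boxes in EGR1. The stretches are chr14:75278578-75278773 on the plus strand (FOS), chr19:45467746-45467994 on the plus strand (FOSB), chr2:28392781-28392810 on the plus strand (FOSL2), chr1:58784096-58784125 on the minus strand (JUN) and chr5:138465229-138465478 on the plus strand (EGR1). Those of FOS, FOSB and EGR1 end before the gene as the count table has it, and those of FOSL2 and JUN lie within it.
FOS: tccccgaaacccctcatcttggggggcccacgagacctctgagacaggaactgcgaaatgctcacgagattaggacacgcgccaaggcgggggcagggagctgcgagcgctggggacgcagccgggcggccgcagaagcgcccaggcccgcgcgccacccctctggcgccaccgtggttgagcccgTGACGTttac
FOSB: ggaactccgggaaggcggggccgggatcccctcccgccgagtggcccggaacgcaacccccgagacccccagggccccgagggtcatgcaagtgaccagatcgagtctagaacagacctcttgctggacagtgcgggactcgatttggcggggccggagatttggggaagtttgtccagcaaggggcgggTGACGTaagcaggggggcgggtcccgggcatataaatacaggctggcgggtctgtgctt
FOSL2: gagtctggggtTGACGTgagtgaatccaca
JUN: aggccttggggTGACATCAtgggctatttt
EGR1: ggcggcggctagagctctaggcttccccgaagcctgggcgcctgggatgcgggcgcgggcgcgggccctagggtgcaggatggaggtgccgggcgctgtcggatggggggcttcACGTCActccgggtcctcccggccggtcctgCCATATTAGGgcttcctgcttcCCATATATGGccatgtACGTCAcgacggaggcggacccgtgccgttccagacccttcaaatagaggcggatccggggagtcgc

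Motifs were searched on both strands of this whole window, and the share of all 35116 promoters of the same length is given for each. The CRE half-site TGACGT, bound by CREB and ATF factors, was added after the sequences were seen; 7.98% of promoters hold it, and so did 5 of the 8 members with a window, FOS, FOSB, FOSL2, JUND and EGR1. It lay at −64 to −59 from the RefSeq start in FOS, at −60 to −55 in FOSB and at −66 to −61 in FOSL2, but also at −67 to −62 and −136 to −131 in EGR1, which was not called. In JUND it lay at −87 to −82 and, on opposite strands, at −200 to −195 and −198 to −193. The ATF/CREB-type site TGACNTCA, held by 7.72% of promoters, was in JUN at −67 to −60 and in JUND at −200 to −193; with G at the free position it contains the half-site. The AP-1 site TGANTCA, held by 7.71%, was in FOSL2 at 4 to 10 after the start. The CArG box, where SRF binds, was in EGR1 at −105 to −96 and at −83 to −74, and 1.29% of promoters hold it. The UPRE-type core TGACGTGG, which also contains the half-site and is held by 0.729% of promoters, was in 0 of the 8 windows, as was the ERSE, held by 0.0769%. Sites outside the window were not searched, so a member without a match may hold one elsewhere. A match is a description of letters, and binding was not measured.

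Compared per kilobase of exon, the JUN family was far more abundant than the FOS family in every group. The whole exon length was used, though fragments that overlap several genes were not counted. Levels of JUNB, IER2 and IER3, with 14.2%, 30.8% and 26.5% of exon bases shared with another gene, may thus be understated. In siCtrl, JUND, the JUN protein known for steady expression in resting cells, was at 128 CPM per kilobase (SD 15.8, n = 4), JUN at 64.7 (SD 2.78) and JUNB at 56.6 (SD 8.45). On the same scale FOSL2 was at 10.7 (SD 0.914), IER2 at 7.14 (SD 0.390) and FOS at 3.61 (SD 0.174). The remaining members were low: IER3 at 0.615 CPM per kilobase (SD 0.129), FOSB at 0.579 (SD 0.110), EGR1 at 0.328 (SD 0.0647) and FOSL1 at 0.117 (SD 0.0541). The summed FOS family level per kilobase was 15.1 (SD 0.947) in siCtrl, 18.4 (SD 1.02) in siXBP1, 14.2 (SD 0.562) in Vehicle and 16.7 (SD 0.747) in MKC8866. The JUN family sum per kilobase was 249 (SD 23.6), 282 (SD 9.55), 275 (SD 6.09) and 304 (SD 18.8) in the same order. On that scale JUN family RNA exceeded FOS family RNA 16.6-fold (SD 0.591) in siCtrl, 15.4-fold (SD 0.876) in siXBP1, 19.4-fold (SD 1.07) in Vehicle and 18.2-fold (SD 1.05) in MKC8866. Within the FOS family, FOSL2, which lacks the strong activation domain of FOS, made up 71.3% of the per-kilobase level in siCtrl, 68.4% in siXBP1, 69.3% in Vehicle and 66.7% in MKC8866, and FOS made up 24.0%, 24.7%, 25.2% and 28.4%. JUND made up 51.3%, 52.4%, 49.6% and 48.8% of the JUN family.

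**Figure D1:**
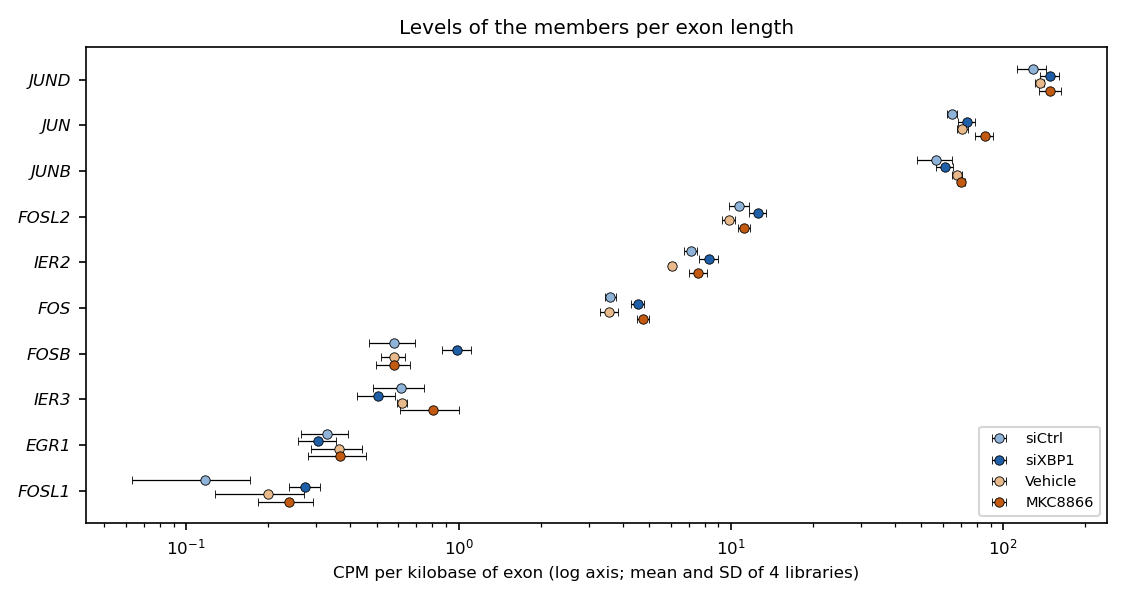
Level of each member in CPM per kilobase of exon (log axis) in the 4 groups; points are group means and bars the SD over 4 libraries. JUND was at 128 and FOSL1 at 0.117 CPM per kilobase in siCtrl, the ends of the range.

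The knockdown comparison asked what changes when XBP1 RNA is removed. After XBP1 siRNA, 7 of the 10 members were higher and 0 were lower: FOS, FOSB, FOSL1, FOSL2, JUN, JUND and IER2, with JUNB, EGR1 and IER3 not called. A gene was called when its adjusted p was under 0.05. Of all 21021 genes tested, 34.8% were called in either direction and 16.5% were called higher. The members' median log2 fold change was 0.21, against 0.0050 over all genes. Among the 7 called members the size of the changes ran from 1.20 for FOSL1, at very low counts, down to 0.18 for JUN. The study calls these samples independent, but neither it nor the labels says that they came from separate cultures, so the p-values measure the spread between these samples, which may be technical.

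Among the FOS family, all 4 genes rose after knockdown. FOS, the prototype early-response partner of JUN, was at 12, 11.8, 10.9 and 12 CPM in siCtrl replicates 1 to 4 and at 15.7, 13.7, 14.8 and 14.7 CPM in siXBP1. The groups did not overlap, and every knockdown library was above every control. FOS rose by 0.33 (SE 0.0701, adjusted p = 0.000747 in edgeR's quasi-likelihood test with Benjamini-Hochberg adjustment), in 4 of 4 libraries. FOSB, a close relative of FOS known for a long-lived truncated form in the brain, was at 2.41, 3.79, 3.08 and 3.57 CPM in siCtrl and at 4.83, 6.41, 5.28 and 5.41 CPM in siXBP1. Again no library of one group reached the other, although siCtrl replicate 1 was low within its own group. The rise in FOSB was 0.77 (SE 0.131, adjusted p = 6.86e-05 in edgeR's quasi-likelihood test with Benjamini-Hochberg adjustment), seen in 4 of 4 libraries. FOSL1 (FRA1), often raised in invasive carcinoma, was at 0.345, 0.149, 0.127 and 0.266 CPM in siCtrl and at 0.521, 0.609, 0.477 and 0.458 CPM in siXBP1. Its groups were separate too, but its siCtrl libraries held only 4 to 11 fragments and its siXBP1 libraries 14 to 19. FOSL1 rose by 1.20 (SE 0.374, adjusted p = 0.0149 in edgeR's quasi-likelihood test with Benjamini-Hochberg adjustment), in 4 of 4 libraries.

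FOSL2 (FRA2), the most abundant FOS family gene per kilobase, was at 70.7, 85.9, 77.1 and 74.0 CPM in siCtrl and at 99.2, 86.1, 85.3 and 89.5 CPM in siXBP1. The groups touched: siCtrl replicate 2 was above siXBP1 replicate 3, and 3 of 4 knockdown libraries were above all controls. FOSL2 rose by 0.22 (SE 0.0558, adjusted p = 0.00313 in edgeR's quasi-likelihood test with Benjamini-Hochberg adjustment).

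In the JUN family, 2 of 3 genes rose. JUN, the strongest activator among the JUN proteins and the main nuclear target of JNK, was at 237, 238, 217 and 225 CPM in siCtrl and at 286, 243, 255 and 254 CPM in siXBP1. The groups were separate, with siXBP1 replicate 1 the highest and siXBP1 replicate 2 just above the controls. JUN rose by 0.18 (SE 0.0470, adjusted p = 0.00533 in edgeR's quasi-likelihood test with Benjamini-Hochberg adjustment), in 4 of 4 libraries. JUND was at 209.9, 277, 246 and 223 CPM in siCtrl and at 264, 254, 304 and 280.3 CPM in siXBP1. Here the groups overlapped: siCtrl replicate 2 was within the range of the knockdown libraries, and 2 of 4 knockdown libraries were above all controls. JUND rose by 0.20 (SE 0.0647, adjusted p = 0.0164 in edgeR's quasi-likelihood test with Benjamini-Hochberg adjustment). The call was lost with DESeq2 (adjusted p = 0.101), and with edgeR's quasi-likelihood test with Benjamini-Hochberg adjustment it was lost without siCtrl replicate 1 (0.16, adjusted p = 0.0595) and without siXBP1 replicate 3 (0.16, adjusted p = 0.0615).

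JUNB, a weaker activator that can restrain JUN, was at 100.5, 125, 90.0 and 96.5 CPM in siCtrl and at 113, 115, 99.2 and 117 CPM in siXBP1. Its groups overlapped, with siCtrl replicate 2 the highest of the 8 libraries. Its log2 fold change was 0.10 (SE 0.0715, adjusted p = 0.297 in edgeR's quasi-likelihood test with Benjamini-Hochberg adjustment), and without siCtrl replicate 2 it was 0.22 (adjusted p = 0.00394), which passed the threshold. As single libraries were left out, the JUNB value ran from 0.05 to 0.22. Fragments were counted without regard to strand, and those that overlap several genes were left out. Of the exon bases of JUNB, 14.2% overlap HOOK2 on the opposite strand, which had 69402 fragments over the 16 libraries.

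Of the early genes outside AP-1, IER2 was the one called. IER2, a small nuclear protein induced by serum and growth factors, was at 21.8, 23.7, 21.1 and 21.1 CPM in siCtrl and at 28.1, 25.1, 23.2 and 25.9 CPM in siXBP1. Of the knockdown libraries 3 of 4 were above all controls, and siXBP1 replicate 3 lay just under siCtrl replicate 2. IER2 rose by 0.22 (SE 0.0634, adjusted p = 0.00977 in edgeR's quasi-likelihood test with Benjamini-Hochberg adjustment). Its exons overlap an opposite-strand gene, ENSG00000267598, over 30.8% of their bases, and that gene had 0 fragments in the 16 libraries.

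EGR1, a zinc finger activator switched on through SRF, ran from 0.889 to 1.33 CPM in siCtrl and from 0.749 to 1.11 CPM in siXBP1. IER3, a regulator of cell survival, ran from 0.627 to 1.00 CPM in siCtrl and from 0.521 to 0.764 CPM in siXBP1. For both, the groups overlapped and the counts were small, with as few as 22 fragments in a library for EGR1 and 15 for IER3. Their log2 fold changes were −0.11 (SE 0.218, adjusted p = 0.761) for EGR1 and −0.28 (SE 0.247, adjusted p = 0.428) for IER3 in edgeR's quasi-likelihood test with Benjamini-Hochberg adjustment, and neither was called. Without siCtrl replicate 4, the EGR1 value was 0.047, and the IER3 value ran from −0.39 to −0.17 as single libraries were left out. The antisense gene IER3-AS1 overlaps 26.5% of the exon bases of IER3 and had 651 fragments in the 16 libraries.

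**Figure D2:**
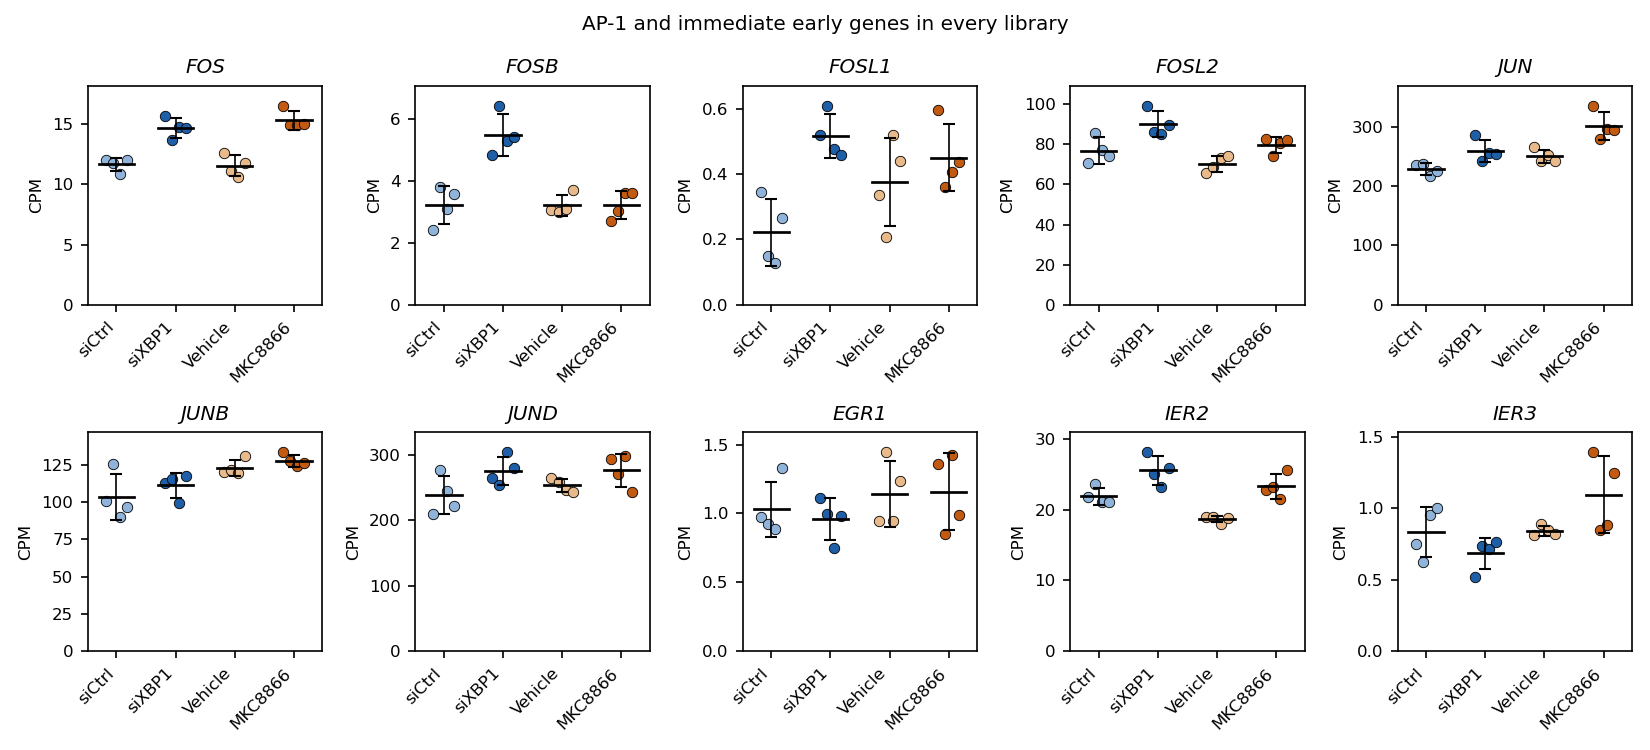
Level of each member in CPM (linear axis from 0) in every library, with the 4 libraries of each group as points and the group mean and SD as a line and bars. FOS lay between 13.7 and 16.5 CPM in the siXBP1 and MKC8866 libraries and between 10.6 and 12.6 CPM in the siCtrl and Vehicle libraries.

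The inhibitor comparison asked what changes when the RNase of IRE1 is blocked while XBP1 RNA remains. With MKC8866, 4 of the 10 members were higher and 0 were lower: FOS, FOSL2, JUN and IER2. Of all 21045 genes tested, 4.47% were called in either direction and 1.36% were called higher. For 3 of the 4 replicate numbers of this experiment, the closest library of the other group, by deviations from group means, had the same number whichever group was taken first, though not for replicate 3 (r = 0.121 across genes). With replicate number as a block 5 of the 10 members were higher, JUND being added, against 13% of all genes called in either direction and 6.0% called higher. The members' median log2 fold change was 0.21 without the block and 0.22 with it, against 0.0027 and 0.0031 over all genes. All 4 members called without the block were higher in 4 of 4 same-numbered pairs.

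FOS was at 12.6, 11.1, 10.6 and 11.8 CPM in Vehicle replicates 1 to 4 and at 16.5, 15, 14.9 and 15 CPM in MKC8866. Every MKC8866 library was above every Vehicle library, and the log2 ratios of the same-numbered pairs were 0.39, 0.43, 0.49 and 0.35. FOS rose by 0.41 (SE 0.0711, adjusted p = 0.000493, or 1.35e-06 with the replicate block, in edgeR's quasi-likelihood test with Benjamini-Hochberg adjustment). FOSL2 was at 65.6, 68.6, 73.0 and 74.1 CPM in Vehicle and at 82.6, 74.0, 80.6 and 82.4 CPM in MKC8866. Its groups touched at Vehicle replicate 4 and MKC8866 replicate 2, leaving 3 of 4 MKC8866 libraries above all controls. FOSL2 rose by 0.18 (SE 0.0486, adjusted p = 0.0295, or 8.11e-05 with the block, in edgeR's quasi-likelihood test with Benjamini-Hochberg adjustment). Without the block that call was lost without Vehicle replicate 1 (0.15, adjusted p = 0.135), Vehicle replicate 2 (0.17, 0.0812), MKC8866 replicate 1 (0.16, 0.120), MKC8866 replicate 3 (0.18, 0.0924) or MKC8866 replicate 4 (0.17, 0.108), and in a fit of all 16 libraries (0.18, 0.0583), each by edgeR's quasi-likelihood test with Benjamini-Hochberg adjustment.

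FOSB was at 3.04, 2.99, 3.09 and 3.69 CPM in Vehicle and at 2.69, 3.01, 3.60 and 3.61 CPM in MKC8866. The groups lay on top of each other, with the lowest and the middle libraries of both intermixed. Its log2 fold change was 0.0059 (SE 0.125, adjusted p = 0.992 in edgeR's quasi-likelihood test with Benjamini-Hochberg adjustment), and it ranged from −0.057 to 0.083 as single libraries were left out. It was −0.022, −0.029 and −0.014 without Vehicle replicates 1, 2 and 3, and −0.048 and −0.057 without MKC8866 replicates 3 and 4. FOSL1 was at 0.338, 0.206, 0.520 and 0.440 CPM in Vehicle and at 0.597, 0.360, 0.407 and 0.436 CPM in MKC8866, with the groups overlapping. At 6 to 18 fragments a library, its log2 fold change of 0.24 (SE 0.339, adjusted p = 0.819 in edgeR's quasi-likelihood test with Benjamini-Hochberg adjustment) was not called, and it was 0.05 without Vehicle replicate 2, 0.08 without MKC8866 replicate 1 and 0.43 without Vehicle replicate 3.

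JUN was at 265, 242, 253 and 242 CPM in Vehicle and at 336, 280.2, 297 and 295 CPM in MKC8866. Each MKC8866 library was above all Vehicle libraries, and replicate 1 was the highest of its group in both. JUN rose by 0.27 (SE 0.0482, adjusted p = 0.00076, or 5.6e-12 with the block, in edgeR's quasi-likelihood test with Benjamini-Hochberg adjustment). JUND was at 265, 259, 247 and 244 CPM in Vehicle and at 294, 272, 299 and 244 CPM in MKC8866. MKC8866 replicate 4 lay just under the lowest control while the other 3 of 4 lay above all controls. The log2 fold change of JUND was 0.12 (SE 0.0522, adjusted p = 0.237 in edgeR's quasi-likelihood test with Benjamini-Hochberg adjustment), and with the block, 0.12 (SE 0.0282, adjusted p = 0.0017), it was called. Leaving out MKC8866 replicate 4 also gave a call without the block (0.18, adjusted p = 0.0175 in edgeR's quasi-likelihood test with Benjamini-Hochberg adjustment). JUNB was at 120.2, 121, 119.5 and 131 CPM in Vehicle and at 133, 128, 124 and 126 CPM in MKC8866, overlapping at Vehicle replicate 4. Its log2 fold change was 0.05 (SE 0.0421, adjusted p = 0.625 in edgeR's quasi-likelihood test with Benjamini-Hochberg adjustment), and from 0.03 to 0.08 as single libraries were left out.

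IER2 was at 19, 19, 18 and 18.9 CPM in Vehicle and at 22.9, 23.2, 21.5 and 25.7 CPM in MKC8866. All 4 treated libraries were above all 4 controls, which were close together. IER2 rose by 0.32 (SE 0.0615, adjusted p = 0.00172, or 7.01e-06 with the block, in edgeR's quasi-likelihood test with Benjamini-Hochberg adjustment). EGR1 ran from 0.943 to 1.44 CPM in Vehicle and from 0.852 to 1.42 CPM in MKC8866, and IER3 from 0.810 to 0.893 CPM and from 0.852 to 1.39 CPM. Both pairs of groups overlapped. The log2 fold changes were 0.01 (SE 0.214, adjusted p = 0.992) for EGR1 and 0.38 (SE 0.216, adjusted p = 0.440) for IER3 in edgeR's quasi-likelihood test with Benjamini-Hochberg adjustment, and neither was called. The EGR1 value was −0.069 and −0.071 without Vehicle replicates 1 and 3, and −0.083 and −0.10 without MKC8866 replicates 1 and 3. The IER3 value ran from 0.24 to 0.47 as single libraries were left out.

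**Figure D3:**
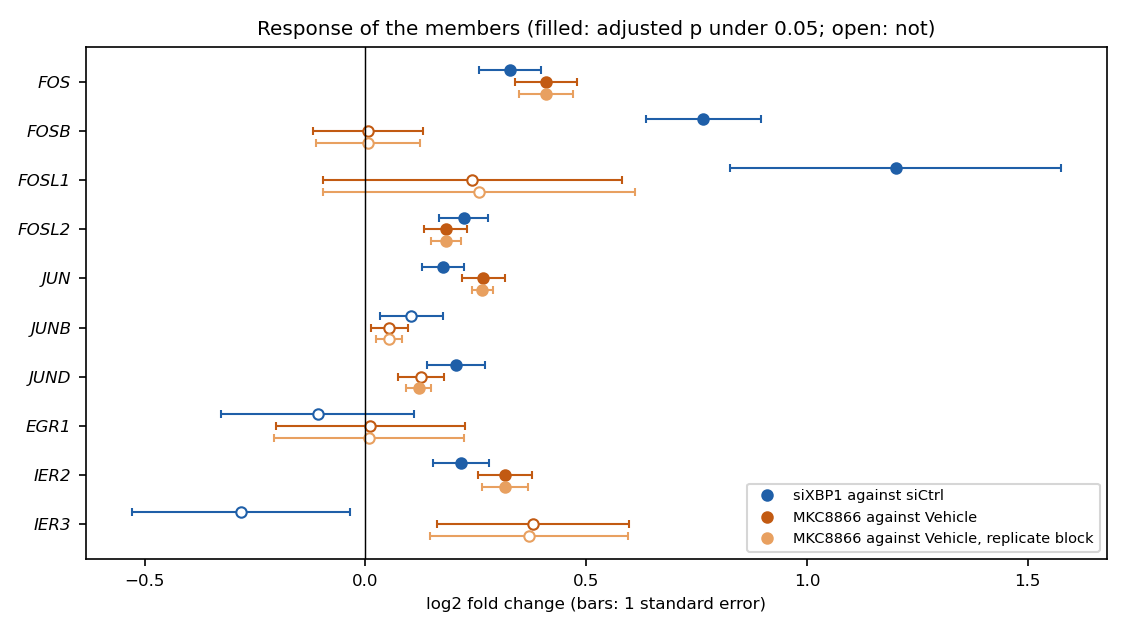
Log2 fold change of each member after knockdown, with the inhibitor, and with the inhibitor and the replicate block; points are fitted values (filled where called), bars are 1 SE, from 4 against 4 libraries each. FOSB was at 0.77 after knockdown and 0.0059 with the inhibitor, while FOS was at 0.33 and 0.41.

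The difference between the responses was tested directly, as the knockdown change minus the inhibitor change in a fit of all 16 libraries, which shares its libraries with both comparisons. FOSB was the 1 of 10 members called, where 23.3% of the 20357 genes tested were. The difference for FOSB was 0.76 (SE 0.187, adjusted p = 0.00301, or 0.77 and 0.000565 with the replicate block, in edgeR's quasi-likelihood test with Benjamini-Hochberg adjustment), with the knockdown response the higher. In the levels, all 4 siXBP1 libraries of FOSB were above the other 12 libraries. FOSL1 and IER3 had differences of comparable size with wide errors, 0.96 (SE 0.485, adjusted p = 0.166) and −0.66 (SE 0.316, adjusted p = 0.142) in edgeR's quasi-likelihood test with Benjamini-Hochberg adjustment. For the 4 members called higher in both experiments the differences were −0.08 (SE 0.0967) for FOS, 0.04 (SE 0.0781) for FOSL2, −0.09 (SE 0.0719) for JUN and −0.10 (SE 0.0881) for IER2. Their adjusted p was 0.627, 0.754, 0.421 and 0.486 in edgeR's quasi-likelihood test with Benjamini-Hochberg adjustment, which does not show that the responses were equal. For JUNB, JUND and EGR1 the differences were 0.05 (SE 0.0915), 0.08 (SE 0.0935) and −0.12 (SE 0.304). The sign turned without siXBP1 replicate 1 for FOSL2 (−0.0064), without siCtrl replicate 3 for JUNB (−0.0035) and without siCtrl replicate 4 for EGR1 (0.031). As single libraries were left out, the difference also ran from −0.12 to −0.04 for FOS, −0.14 to −0.03 for JUN, −0.14 to −0.05 for IER2 and 0.02 to 0.16 for JUND.

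The controls of the experiments, siCtrl and Vehicle, differ in transfection, vehicle, timing and experiment at once, which cannot be told apart, and the fit shares its libraries with the comparisons above. Of the 10 members 2 were called, against 15% of the 20357 genes tested. IER2 was higher in siCtrl by 0.22 (SE 0.0631, adjusted p = 0.0156 in edgeR's quasi-likelihood test with Benjamini-Hochberg adjustment), with all 4 siCtrl libraries above all 4 Vehicle libraries. Without siCtrl replicate 2 this was 0.19 (adjusted p = 0.0720 in edgeR's quasi-likelihood test with Benjamini-Hochberg adjustment), no longer called, which left JUNB as the 1 member called. JUNB was −0.26 (SE 0.0648, adjusted p = 0.00501 in edgeR's quasi-likelihood test with Benjamini-Hochberg adjustment), lower in siCtrl, where replicate 2 alone reached the Vehicle range. JUN was −0.14 (SE 0.0509, adjusted p = 0.0654 in edgeR's quasi-likelihood test with Benjamini-Hochberg adjustment), and its siCtrl libraries were all below its Vehicle libraries. The JUN value passed the threshold without siCtrl replicate 1 (−0.16, adjusted p = 0.0456), siXBP1 replicate 1 (−0.14, 0.0439) or MKC8866 replicate 1 (−0.13, 0.0499), with no filter on low counts (−0.13, 0.0400) and in the 8 control libraries alone (−0.13, 0.0356), all in edgeR's quasi-likelihood test with Benjamini-Hochberg adjustment.

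Across the 4 groups, the order of the CPM levels differed between members. FOS ran from Vehicle and siCtrl, which overlapped, to siXBP1 and MKC8866, which overlapped each other and were separate from the controls. For FOSB, siXBP1 stood apart above the 3 other groups, which overlapped in turn. For FOSL2 the order was Vehicle, siCtrl, MKC8866 and siXBP1, with siXBP1 separate from MKC8866 and the other neighbours overlapping. In JUN, siCtrl was separate below Vehicle, and siXBP1 and MKC8866 followed with overlaps. JUNB was ordered siCtrl, siXBP1, Vehicle and MKC8866, with siXBP1 separate below Vehicle and the other neighbours overlapping. IER2 was lowest in Vehicle, separate from siCtrl, and siCtrl, MKC8866 and siXBP1 overlapped. The neighbouring groups of FOSL1, JUND, EGR1 and IER3 all overlapped. Over the 16 libraries, the highest CPM was 1.45 times the lowest for JUND, 1.55 times for JUN, 1.56 times for FOS and 2.66 times for FOSB.

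For the 8 members with a mean of at least 1 CPM, so not for FOSL1 and IER3, the genes whose log2 CPM followed each most closely over the 16 libraries were ranked by Pearson correlation among 15036 genes, as a description only. The libraries come from 4 treatment groups, so r follows differences between groups as well as those within them, and these were not told apart. FOS was most like PPM1D, a p53-induced phosphatase (r = 0.932), ZFP36L1, which promotes decay of AU-rich messages (0.928), and CAPRIN1, an RNA-binding protein (0.911). FOSB was most like MAPK8IP2, a JNK scaffold (0.940), LONP1, a mitochondrial protease (0.937), and BCL11B, a zinc finger repressor (0.936). FOSL2 was most like FUT1, a fucosyltransferase (0.950), NOTCH1, a receptor (0.933), and ADGRL1, an adhesion receptor (0.932). JUN was most like ELF3, an epithelial ETS factor (0.961), ASAP3, an ARF GTPase activator (0.939), and HIVEP1, a zinc finger factor (0.922). IER2 was most like SRGAP2C (0.944), ANKRD50 (0.919) and GEM, itself an early-response GTPase (0.918). For JUNB the closest were POLR1G (0.897), DPY19L2P2 (0.890) and EML3 (0.883), and for JUND TATDN2 (0.938), YWHAH (0.906) and H1-10 (0.888). EGR1, at low counts, had no gene so close: HACE1 (0.741), ESYT3 (0.735) and ENSG00000274712 (0.708). Between members, r was 0.805 for FOS and JUN, 0.858 for FOSL2 and IER2, 0.714 for FOS and IER2 and −0.087 for FOSB and JUN.

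Related genes were described in 5 lists, also chosen with earlier results of these data known, of which 88 genes were tested in each experiment. ATF3 and MAFF stand in both the immediate early and the basic leucine zipper list, so they count once in these totals but in each of those lists below. After knockdown 30 were higher and 27 lower, where over all genes tested 16.5% were higher and 18.2% lower. With the inhibitor 16 were higher and 5 lower, against 1.36% and 3.11% of all genes. With the replicate block 33 were higher and 7 lower, against 6.0% and 7.05% of all genes.

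Other immediate early genes moved both ways after knockdown. Of 24 tested, 9 rose, 5 fell and 10 were not called, and the list median was 0.06 against 0.0050 over all genes. EGR3, a relative of EGR1, rose from a mean of 3.32 CPM (SD 0.254, n = 4) to 6.23 (SD 0.946), IER5, a stress-response regulator, from 6.19 (SD 0.286) to 11.1 (SD 0.883), and BTG2, an antiproliferative p53 target, from 98.4 (SD 1.38) to 150.3 (SD 8.35). Those rises were 0.90 (SE 0.119, adjusted p = 2.5e-06), 0.84 (SE 0.0856, adjusted p = 5.95e-08) and 0.61 (SE 0.0428, adjusted p = 1.56e-10) in edgeR's quasi-likelihood test with Benjamini-Hochberg adjustment, each with all 4 knockdown libraries above all controls. The orphan nuclear receptors NR4A2 and NR4A3 and the growth regulator MYC fell by 0.85 (SE 0.120, adjusted p = 5.7e-06), 0.70 (SE 0.143, adjusted p = 0.000461) and 0.50 (SE 0.0489, adjusted p = 3.24e-08) in edgeR's quasi-likelihood test with Benjamini-Hochberg adjustment, each with all 4 knockdown libraries below all controls.

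With the inhibitor, 8 of 25 other immediate early genes rose, 2 fell and 15 were not called, and with the block 12 rose, 2 fell and 11 were not called. The list median was 0.16, against 0.0027 over all genes. Without MKC8866 replicate 1, 6 genes of the list were called in place of 10. KLF6, a zinc finger tumour suppressor, went from a mean of 102 CPM (SD 1.52) to 124 (SD 4.42), a rise of 0.27 (SE 0.0405, adjusted p = 5.7e-05 in edgeR's quasi-likelihood test with Benjamini-Hochberg adjustment), in 4 of 4 libraries. EGR3 rose by 0.46 (SE 0.125, adjusted p = 0.0337) and GADD45B, a stress sensor upstream of p38 and JNK, by 0.27 (SE 0.0689, adjusted p = 0.0224), and with the block their adjusted p was 0.00351 and 0.000168 in edgeR's quasi-likelihood test with Benjamini-Hochberg adjustment. Unblocked, the EGR3 call was lost without Vehicle replicate 1 (adjusted p = 0.102), Vehicle replicate 3 (0.0936), Vehicle replicate 4 (0.0927), MKC8866 replicate 1 (0.159) or MKC8866 replicate 4 (0.106) in edgeR's quasi-likelihood test with Benjamini-Hochberg adjustment. The GADD45B call was lost without Vehicle replicate 2 (adjusted p = 0.101), MKC8866 replicate 1 (0.116) or MKC8866 replicate 4 (0.0737) in edgeR's quasi-likelihood test with Benjamini-Hochberg adjustment. NR4A2 fell by 0.55 (SE 0.127, adjusted p = 0.00977) and CSRNP1, a nuclear early-response protein, by 0.25 (SE 0.0519, adjusted p = 0.0034) in edgeR's quasi-likelihood test with Benjamini-Hochberg adjustment. CSRNP1 was lower in all 4 MKC8866 libraries than in any control. MYC, which fell after knockdown, was at 0.16 with the inhibitor (SE 0.0522, adjusted p = 0.0963), not called. With the block MYC was at 0.16 (adjusted p = 0.000285), called higher, both in edgeR's quasi-likelihood test with Benjamini-Hochberg adjustment.

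The other basic leucine zipper partners also split. After knockdown 4 of 14 rose, 5 fell and 5 were not called, with a median of −0.08. MAF, a large MAF factor, fell by 1.12 (SE 0.0841, adjusted p = 4.12e-10), MAFG, a small MAF protein, by 0.44 (SE 0.0559, adjusted p = 1.74e-06), and ATF3, a stress-induced repressor that pairs with JUN, by 0.42 (SE 0.0424, adjusted p = 5.06e-08) in edgeR's quasi-likelihood test with Benjamini-Hochberg adjustment. JDP2, a repressor that pairs with JUN, rose by 0.34 (SE 0.0452, adjusted p = 3.08e-06) in edgeR's quasi-likelihood test with Benjamini-Hochberg adjustment. For each of these 4 genes the groups did not overlap. MAFF, another small MAF protein, rose by 0.31 (SE 0.120, adjusted p = 0.0479 in edgeR's quasi-likelihood test with Benjamini-Hochberg adjustment). That call was lost without siCtrl replicate 1 (adjusted p = 0.120), siCtrl replicate 2 (0.0898), siCtrl replicate 4 (0.0701), siXBP1 replicate 2 (0.112), siXBP1 replicate 3 (0.107) or siXBP1 replicate 4 (0.0644), and with no filter on low counts (0.0637), in edgeR's quasi-likelihood test with Benjamini-Hochberg adjustment. It was also lost in DESeq2 (Wald test, Benjamini-Hochberg adjusted p = 0.0658).

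With the inhibitor 2 of 13 basic leucine zipper partners rose, 1 fell and 10 were not called, or 3, 2 and 8 with the block, with a median of 0.06. MAF went from 37.4 CPM (SD 1.91) to 49.4 (SD 1.67), a rise of 0.40 (SE 0.0499, adjusted p = 5.68e-06) in edgeR's quasi-likelihood test with Benjamini-Hochberg adjustment, in 4 of 4 libraries. ATF4, the main factor of the integrated stress response, fell by 0.17 (SE 0.0374, adjusted p = 0.00715 in edgeR's quasi-likelihood test with Benjamini-Hochberg adjustment), in 4 of 4 libraries. MAF thus fell after knockdown and rose with the inhibitor, and its difference of responses was −1.52 (SE 0.106, adjusted p = 2.89e-12 in edgeR's quasi-likelihood test with Benjamini-Hochberg adjustment).

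Among MAP kinases and the SRF, TCF and CREB factors that act on early genes, 9 of 23 rose after knockdown, 8 fell and 6 were not called, with a median of 0.04. The ERK kinase MAPK3 fell by 0.69 (SE 0.0476, adjusted p = 9.97e-11), and MAP2K6, a p38 activator, by 0.48 (SE 0.106, adjusted p = 0.0011) in edgeR's quasi-likelihood test with Benjamini-Hochberg adjustment. The JNK activators MAP2K4 and MAP2K7 rose by 0.45 (SE 0.0451, adjusted p = 4.23e-08) and 0.26 (SE 0.0476, adjusted p = 0.000128), and MAPK10, the neuronal JNK, at a mean of 2.76 CPM in siCtrl, by 0.63 (SE 0.123, adjusted p = 0.00033) in edgeR's quasi-likelihood test with Benjamini-Hochberg adjustment. All 5 were separate between the groups. Genes of the JNK branch did not all rise. Named after their values were seen, MAPK8 (JNK1, 46.1 CPM in siCtrl) fell by 0.36 (SE 0.0464, adjusted p = 1.81e-06), TRAF2 fell by 0.19 (SE 0.0465, adjusted p = 0.00218) and MAPK9 (JNK2) rose by 0.16 (SE 0.0393, adjusted p = 0.00256) in edgeR's quasi-likelihood test with Benjamini-Hochberg adjustment. With the inhibitor 1 of 23 rose, 0 fell and 22 were not called, with a median of 0.02, and with the block 5 rose, 0 fell and 18 were not called. That 1 gene was 4.35% of the list, against 4.47% called over all genes. It was SRF, which binds CArG boxes, at 155 CPM (SD 4.46) in Vehicle and 185 (SD 12.4) in MKC8866, up by 0.25 (SE 0.0452, adjusted p = 0.000883 in edgeR's quasi-likelihood test with Benjamini-Hochberg adjustment), in 4 of 4 libraries.

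The feedback regulators, phosphatases of MAP kinases, Sprouty proteins and ZFP36 proteins that promote decay of early messages, gave 5 of 16 risen, 5 fallen and 6 not called after knockdown, with a median of 0.07. The phosphatases DUSP5, DUSP2 and DUSP10 fell by 0.74 (SE 0.0846, adjusted p = 3.31e-07), 0.60 (SE 0.0846, adjusted p = 5.79e-06) and 0.37 (SE 0.0699, adjusted p = 0.000218) in edgeR's quasi-likelihood test with Benjamini-Hochberg adjustment. SPRY2, an inhibitor of receptor kinase signalling, DUSP8 and ZFP36L2 rose by 0.68 (SE 0.135, adjusted p = 0.000338), 0.39 (SE 0.0474, adjusted p = 8.56e-07) and 0.32 (SE 0.0630, adjusted p = 0.000368) in edgeR's quasi-likelihood test with Benjamini-Hochberg adjustment. The groups were separate for all 6. With the inhibitor 5 of 16 rose, 0 fell and 11 were not called, with a median of 0.17, and with the block 11 rose, 1 fell and 4 were not called. SPRY1 rose by 0.46 (SE 0.0845, adjusted p = 0.000982), DUSP10 by 0.32 (SE 0.0538, adjusted p = 0.000279) and ZFP36L1 by 0.32 (SE 0.0425, adjusted p = 1.47e-05) in edgeR's quasi-likelihood test with Benjamini-Hochberg adjustment, each in 4 of 4 libraries. DUSP10, a phosphatase of p38 and JNK, was thus at 46.4 CPM (SD 3.98) in siCtrl, 36.0 (SD 4.18) in siXBP1, 38.87 (SD 1.51) in Vehicle and 48.7 (SD 3.44) in MKC8866.

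Reported AP-1 target genes were tested for 13 of 23 symbols in each experiment, the others not passing the filter on low counts. The sets differed, SPP1 being tested after knockdown only and TGFB1 with the inhibitor only. After knockdown 4 rose, 5 fell and 4 were not called, with a median of −0.13. AREG and HBEGF, ligands of the EGF receptor, rose by 1.45 (SE 0.197, adjusted p = 3.85e-06) and 0.30 (SE 0.0669, adjusted p = 0.0012), and VEGFA, a growth factor of blood vessels, by 0.23 (SE 0.0436, adjusted p = 0.000181) in edgeR's quasi-likelihood test with Benjamini-Hochberg adjustment. MMP13, a collagenase, CCND1, a cyclin of G1, and HMOX1, a haem-degrading enzyme, fell by 0.69 (SE 0.118, adjusted p = 7.36e-05), 0.56 (SE 0.0458, adjusted p = 1.51e-09) and 0.41 (SE 0.0844, adjusted p = 0.00051) in edgeR's quasi-likelihood test with Benjamini-Hochberg adjustment. None of these 6 had overlapping groups. The level of AREG was low, at a mean of 0.963 CPM (SD 0.169) in siCtrl and 2.66 CPM (SD 0.666) in siXBP1. With the inhibitor 0 of 13 rose, 2 fell and 11 were not called, with a median of 0.11, and with the block 3 rose, 2 fell and 8 were not called. MMP13 fell by 0.98 (SE 0.114, adjusted p = 1.72e-06 in edgeR's quasi-likelihood test with Benjamini-Hochberg adjustment), from 5.32 CPM (SD 0.579) to 2.69 (SD 0.203), in 4 of 4 libraries. CCND1 fell by 0.13 (SE 0.0369, adjusted p = 0.0487, or 0.000151 with the block, in edgeR's quasi-likelihood test with Benjamini-Hochberg adjustment). Unblocked, the CCND1 call was lost whichever of Vehicle replicates 1 to 4 or MKC8866 replicates 1 to 4 was left out, with adjusted p from 0.0539 to 0.134 in edgeR's quasi-likelihood test with Benjamini-Hochberg adjustment. It was also lost with no filter on low counts (adjusted p = 0.0978) and with all 16 libraries in one fit (adjusted p = 0.0793) in edgeR's quasi-likelihood test with Benjamini-Hochberg adjustment.

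The difference of responses was called for 14 list genes upwards and 25 downwards of 86 tested, where over all genes 10.6% were called upwards and 12.7% downwards, 23.3% together. Among feedback regulators 2 were higher, 7 lower and 7 not called, with a median of −0.27 against 0.0094 over all genes. Without siXBP1 replicate 4, 5 genes of that list were called in place of 9. DUSP5 differed by −1.0 (SE 0.122, adjusted p = 2.47e-07) and DUSP10 by −0.69 (SE 0.0947, adjusted p = 1.75e-06), and DUSP8 by 0.27 (SE 0.0803, adjusted p = 0.0131), in edgeR's quasi-likelihood test with Benjamini-Hochberg adjustment. Other immediate early genes gave 2 higher, 5 lower and 17 not called (29.2% called), with a median of −0.08, among them IER5 at 0.70 (SE 0.144, adjusted p = 0.00053), BTG2 at 0.40 (SE 0.0613, adjusted p = 9.85e-06), NR4A3 at −0.82 (SE 0.175, adjusted p = 0.000733) and MYC at −0.65 (SE 0.0738, adjusted p = 5.65e-08) in edgeR's quasi-likelihood test with Benjamini-Hochberg adjustment. Of the MAP kinases and their factors 5 were higher, 6 lower and 12 not called, with a median of −0.08, MAPK3 at −0.71 (SE 0.0653, adjusted p = 9.6e-10) and MAP2K4 at 0.39 (SE 0.0596, adjusted p = 8.8e-06) in edgeR's quasi-likelihood test with Benjamini-Hochberg adjustment. The basic leucine zipper partners gave 3 higher, 5 lower and 5 not called, with a median of 0.0068, ATF3 at −0.52 (SE 0.0589, adjusted p = 6.36e-08 in edgeR's quasi-likelihood test with Benjamini-Hochberg adjustment) among the lower. Of the AP-1 targets 2 were higher, 3 lower and 7 not called, with a median of 0.0036, AREG at 1.08 (SE 0.277, adjusted p = 0.00437) and CCND1 at −0.43 (SE 0.0582, adjusted p = 1.15e-06) in edgeR's quasi-likelihood test with Benjamini-Hochberg adjustment. With the replicate block 18 list genes were higher and 27 lower, against 2641 and 3001 of the 20357 genes tested. Other immediate early genes then gave 4 higher, 6 lower and 14 not called.

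**Figure D4:**
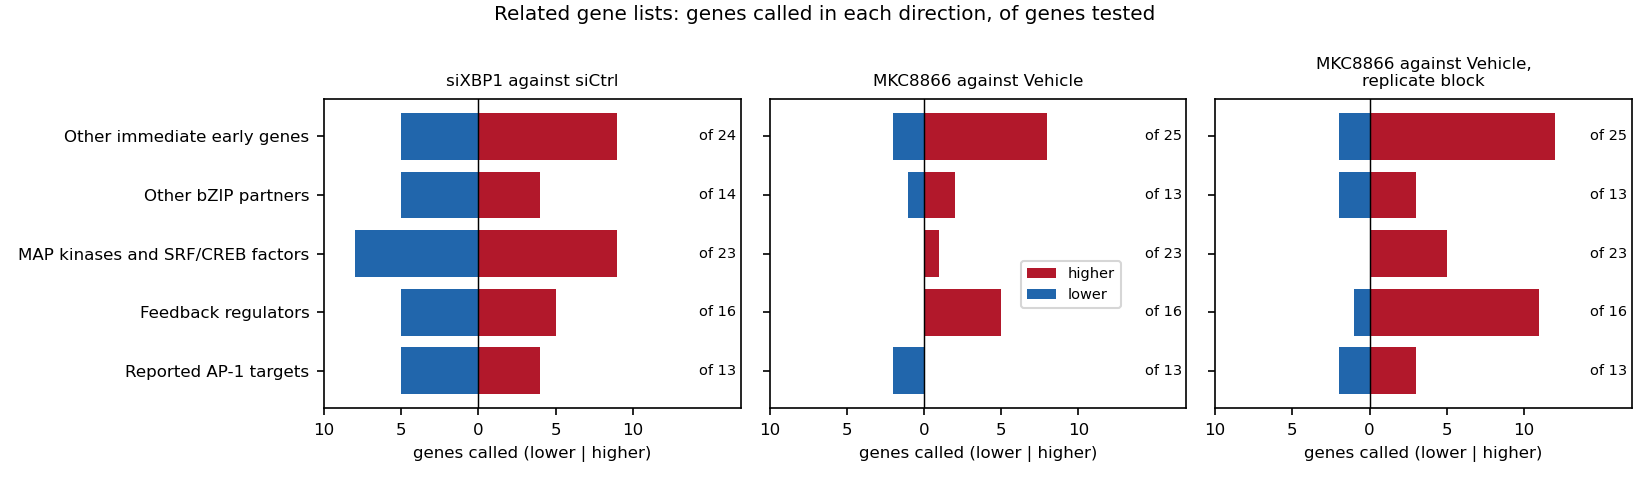
Number of genes called higher (to the right) and lower (to the left) in each related list after knockdown and with the inhibitor, without and with the replicate block; the number tested stands at the right. Feedback regulators with the inhibitor had 5 higher and 0 lower of 16 without the block, and 11 and 1 with it.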

How the data were processed

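The authors deposited 1 table of raw counts per gene for the 16 libraries: paired-end reads of stranded libraries were aligned to GRCh38 with STAR 2.5.2a and counted with featureCounts 1.5.0 on Ensembl annotation, without regard to strand and without fragments that map to several places or overlap several genes. Per the file headers, its length column, of unit other than counts, is the summed exon length in bases. Total counts ran from 28713607 to 34509488, with a median of 30743136. Genes were kept where each group had a library with over 5 counts, and fitted in edgeR 4.0.16 (R 4.3.3; TMM, quasi-likelihood F test, two-sided), each experiment alone with 8 libraries, and all 16 for the difference of responses and the controls. Adjusted p is Benjamini-Hochberg over all genes tested, and under 0.05 is called. Standard errors came from the fold change and F. The unit of levels is TMM-scaled CPM.

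The members and lists were chosen with earlier results of these data known. Named genes are the members, XBP1, DNAJB9, in each list up to 3 called genes per direction with the largest change at a mean of at least 1 CPM, and the 3 genes most like each member with a mean of at least 1 CPM (all but FOSL1 and IER3). Some genes that this rule names are not reported here. The 5 lists were other immediate early genes, other basic leucine zipper partners, MAP kinases with SRF, TCF and CREB factors, feedback regulators and reported AP-1 targets. Across 15037 genes, deviations of same-numbered libraries from their group means correlated at r = 0.241, 0.422, 0.121 and 0.249 in the inhibitor experiment, the same number being closest from both groups for all but replicate 3, so replicate number was also fitted there as a block (2746 genes called in place of 941). Alternatives were DESeq2 1.42.0, RLE factors, other count filters, other sample sets, the block and leaving out each library. The fits were tested on simulated data. Python 3.11.15 drew figures and searched motifs.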

Additional observations from a re-analysis of the deposited data

Results flagged for a closer look

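Of the 40 sets of 4 libraries (10 genes in 4 groups), 4 held a library whose distance from the nearest other exceeded Dixon's critical share of the group's range; chance gives such a library in about 1 in 20 groups. FOS was highest in MKC8866 replicate 1, at 16.5 CPM (gap 0.945 of the range). FOSB was highest in Vehicle replicate 4, at 3.69 CPM (0.857). JUNB was highest in the same library, at 131 CPM (0.863). IER2 was lowest in Vehicle replicate 3, at 18 CPM (0.882). The calls of FOS and IER2 with the inhibitor were kept without these libraries. FOSB also drew attention because its responses in the experiments differed, by 0.76 on the log2 scale (adjusted p = 0.00301 in edgeR's quasi-likelihood test with Benjamini-Hochberg adjustment), with the knockdown response the higher. The causes were not tested.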

How the results depend on the processing

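Over leave-one-library-out runs 1549 results kept direction and side of the threshold, 84 fell short of it, 5 newly passed it and 26 changed sign; over the other settings these counts were 734, 10, 3 and 5. The cause was not tested for any change. With the replicate block, inhibitor calls were 2746 in place of 941 over all genes and 40 in place of 21 over list genes; in the knockdown experiment, whose numbers did not pair the libraries, the block gave 7323 in place of 7311 and the same 7 members. Leaving out 1 library, the members called between controls ranged from 1 to 3. Log2 values that changed sign as single libraries were left out ranged from −0.1746 to 0.0473 for EGR1 after knockdown, −0.0571 to 0.0825 for FOSB and −0.1036 to 0.1333 for EGR1 with the inhibitor, and, for the difference of responses, −0.0035 to 0.1563 for JUNB, −0.2437 to 0.0305 for EGR1 and −0.0064 to 0.0973 for FOSL2. Between controls they were −0.0201 to 0.0524 for FOS, −0.0918 to 0.1026 for FOSB and −0.1252 to 0.0961 for IER3. FOSB between controls, −0.0060, was 0.0035 with DESeq2, 0.0033 with RLE, 0.0034 with no filter, 0.0032 with at least 10 counts in every library and 0.0008 in the 8 control libraries alone. With that filter FOSL1 was not tested. FOSL1, EGR1 and IER3 held as few as 4, 22 and 15 fragments in a library.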

Other observations

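Between the controls, siCtrl minus Vehicle, 13 of the 86 list genes tested were higher and 10 lower, where over all genes tested 7.65% were higher and 7.39% lower, 15% together. ATF3 and MAFF, which are in both the immediate early and the basic leucine zipper list, count once in that total. Of 24 other immediate early genes 3 were higher and 5 lower. The YAP-responsive matricellular genes CCN2 and CCN1 were among the lower, at −0.69 (SE 0.129, adjusted p = 0.000301) and −0.46 (SE 0.0526, adjusted p = 2.55e-07) in edgeR's quasi-likelihood test with Benjamini-Hochberg adjustment, and CCN1 ran from 43.3 to 47.7 CPM in siCtrl against 59.2 to 66.9 CPM in Vehicle. MYC was higher, at 0.32 (SE 0.0519, adjusted p = 6.3e-05 in edgeR's quasi-likelihood test with Benjamini-Hochberg adjustment). Of 16 feedback regulators 4 were higher and 3 lower, with SPRY4, an inhibitor of ERK signalling, at −0.89 (SE 0.0941, adjusted p = 6.67e-08 in edgeR's quasi-likelihood test with Benjamini-Hochberg adjustment), from 7.65 to 9.26 CPM in siCtrl against 14.9 to 16.9 CPM in Vehicle. Without siCtrl replicate 2, 4 of the feedback regulators were called in place of 7. Of 13 basic leucine zipper partners 2 were higher and 1 lower, with MAF at 0.47 (SE 0.0734, adjusted p = 3.21e-05 in edgeR's quasi-likelihood test with Benjamini-Hochberg adjustment). Of 23 MAP kinases and their factors 2 were higher and 1 lower, 13% of the list and below the share of all genes, the lower being MAP2K4 at −0.29 (SE 0.0424, adjusted p = 1.04e-05 in edgeR's quasi-likelihood test with Benjamini-Hochberg adjustment). Of 12 AP-1 targets 2 were higher and 1 lower, with CCND1 at 0.28 (SE 0.0409, adjusted p = 1.21e-05 in edgeR's quasi-likelihood test with Benjamini-Hochberg adjustment). Transfection, vehicle, timing and experiment cannot be told apart here.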
